A study of Mus musculus with 4 samples.

Results

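The autophagy machinery genes are those whose products build the autophagosome, the membrane vesicle that encloses cytoplasm and carries it to the lysosome. They were picked by name from the gene tables: the ATG genes, the LC3 and GABARAP genes, Wipi1 and Wipi2, and 13 further named kinases, scaffolds, cargo receptors and transcription factors. This gave 38 entries of 35522, standing for 37 genes, since Atg4a is listed as 2 entries with the same gene ID. Another 2 entries with names ending in -ps were left out, and Atg101, which the tables list as 9430023L20Rik, was not matched by name. The libraries are mRNA sequencing of whole liver from C57BL/6 mice given diethylnitrosamine (DEN), a carcinogen that liver enzymes activate, and taken at 24 h. There were 2 Dph1 KO and 2 Control libraries, and all 4 are labelled as DEN-treated, so no untreated library enters any comparison. Dph1 encodes an enzyme of the first step of diphthamide synthesis, a modification of a histidine in elongation factor eEF2. The labels do not give how Dph1 was deleted, in which cells, or the sex or age of the mice, and do not tie a library to an animal, so p-values cover only the spread between these 4 libraries, which may be technical.

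Autophagy starts when the ULK1 kinase complex is released from inhibition by the nutrient-sensing kinase complex mTORC1. A class III phosphatidylinositol 3-kinase then marks the forming membrane, ATG9 and ATG2 supply lipid, and 2 linked conjugation reactions attach ATG8 proteins (LC3 and GABARAP) to it. Cargo receptors such as p62 bind both ubiquitinated cargo and ATG8 proteins. TFEB and TFE3 switch on autophagy and lysosome genes through E-box sequences. In liver, autophagy supplies amino acids and lipids in fasting, and loss of Atg5 or Atg7 leads to p62 build-up and liver tumours in mice.

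In Dph1 KO livers 3 members rose and 4 fell. The 3 that rose were Rb1cc1, Uvrag and Atg3, by 1.69- to 1.81-fold. The 4 that fell were Map1lc3b, Atg4d, Tfeb and Tfe3, lower by 1.71- to 2.19-fold. The other 31 did not pass the test. With an offset for the GC content and length of transcripts, the calls of Rb1cc1, Atg3 and Tfeb were lost and Atg9b was called higher, as given with their values further on. The test was edgeR's quasi-likelihood test on gene read counts scaled by TMM, a factor that corrects library totals for differences in RNA composition, with Benjamini-Hochberg adjustment over all 13303 genes tested and a threshold of 0.05. All 38 members passed the filter on low counts. The background was 12.3% of tested genes called, with 4.86% higher and 7.47% lower, against 18.4% of the members. At an unadjusted p under 0.05 edgeR had 21 of the 38 members, and 34.2% of all tested genes. DESeq2 called 3 members higher, where 4.77% of all tested genes were, and 6 lower, where 10.3% were. Counting members whose libraries did not overlap in CPM, reads scaled to library size with the TMM factor, 31 of 38 stood apart, 19 with both Dph1 KO libraries above and 12 with both below, where 67.4% of all tested genes stood apart. The median log2 fold change of the members was 0.17, against 0.04 over all tested genes.

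How many members were called depended on single libraries, and so did how many of all tested genes were called. Most or all calls of members were lost when either Control library was left out. Without Dph1 KO replicate 1 fewer members were called, and without Dph1 KO replicate 2 more were. The number called over all tested genes moved the same way in each of these fits. Log2 fold changes in them ran from 0.53 to 1.09 for Rb1cc1, 0.78 to 0.97 for Uvrag and 0.64 to 0.90 for Atg3. They ran from -1.10 to -0.66 for Map1lc3b, -1.56 to -0.77 for Atg4d, -1.13 to -0.66 for Tfeb and -0.98 to -0.56 for Tfe3. In each of these fits the group left with 1 library was assumed to vary like the other group. All 7 called members kept their direction in every alternative fit. Each had both KO libraries on 1 side of both Control libraries in CPM and in TPM, so a change of direction was unlikely beforehand.

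Dph1 itself had 17.2 and 24.9 TPM (the deposited length-corrected level) in the Dph1 KO libraries and 51.8 and 45.9 TPM in the Control libraries. Both KO libraries were lower, with a log2 fold change of -1.49 ± 0.26 (SE; edgeR adjusted p = 0.0107), and reads of the gene remained in both. Only 54.2% of its reads matched 1 place, with 194 and 291 such reads in Dph1 KO and 762 and 722 in Control. Libraries held 20410978 and 21137358 gene reads in Dph1 KO and 19474596 and 20355790 in Control. TMM factors were 1.16 and 1.04 in Dph1 KO and 0.945 and 0.884 in Control, so a fold change on the TMM scale is lower than one from TPM, and scaling by library totals alone moves the median log2 fold change of all genes up by 0.26. TPM is therefore used to compare levels between genes, and TMM-scaled CPM for the test.

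Of 43 tested markers for 9 liver cell types, 4 were called, all lower: Cd68 of the Kupffer and macrophage list, Cd79a of the B cell list, and Des and Col1a1 of the stellate list. Summed hepatocyte markers, 7 of 7 tested, were 58743 to 68340 TPM in Dph1 KO and 49427 to 52037 TPM in Control, with 1 marker at an unadjusted p under 0.05 by edgeR and 1 called by DESeq2. For the 10 Kupffer and macrophage markers the sums were 335 to 515 TPM in Dph1 KO and 416 to 453 TPM in Control, and for the 7 stellate markers 73.1 to 103 TPM in Dph1 KO and 68.2 to 69.5 TPM in Control. B cell markers, 3 of 4 tested, summed to 3.97 to 5.11 TPM in Dph1 KO and 6.16 to 6.63 TPM in Control. Endothelial markers summed to 86.5 to 103 TPM in Dph1 KO and 71.6 to 85.0 TPM in Control, and erythroid markers to 598 to 759 TPM in Dph1 KO and 491 to 648 TPM in Control. Cholangiocyte, neutrophil, and T and NK markers summed to under 31 TPM in every library, and Trac was at 0 in all 4. These sums are in TPM, which runs higher in Dph1 KO than the TMM scale. On the TMM scale, log2 fold changes ran from -0.39 (Serpina1c) to 0.85 (Apob) for hepatocyte markers. They ran from -0.56 (Cdh5) to 0.30 (Lyve1) for endothelial markers, and from -1.06 (Col1a1) to 0.84 (Lrat) for stellate markers. The part of these markers in the autophagy results was not tested. In whole liver, fewer cells of a type and less RNA per cell cannot be told apart.

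Because the TFEB and TFE3 genes were among those that fell, the promoters of 4 called members that work at other steps are shown with the E-box they recognise. Each sequence is the 250 bases before the RefSeq start (GRCm38.p6), read 5′ to 3′ on the gene's strand, with every CACGTG in capitals. Atg3 lies at chr16:45158579-45158828 (plus strand), Uvrag at chr7:99141145-99141394 (minus strand), Map1lc3b at chr8:121590188-121590437 (plus strand) and Atg4d at chr9:21265035-21265284 (plus strand).
Atg3: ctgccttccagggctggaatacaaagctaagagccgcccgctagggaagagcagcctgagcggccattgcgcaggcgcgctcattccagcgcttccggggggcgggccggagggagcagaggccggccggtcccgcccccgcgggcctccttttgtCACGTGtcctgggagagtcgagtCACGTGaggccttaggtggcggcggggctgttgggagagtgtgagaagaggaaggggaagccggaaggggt
Uvrag: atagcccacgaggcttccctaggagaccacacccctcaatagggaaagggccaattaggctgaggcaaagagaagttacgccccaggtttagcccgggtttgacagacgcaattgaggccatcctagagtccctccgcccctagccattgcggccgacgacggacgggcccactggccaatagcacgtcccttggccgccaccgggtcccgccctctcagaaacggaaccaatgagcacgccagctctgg
Map1lc3b: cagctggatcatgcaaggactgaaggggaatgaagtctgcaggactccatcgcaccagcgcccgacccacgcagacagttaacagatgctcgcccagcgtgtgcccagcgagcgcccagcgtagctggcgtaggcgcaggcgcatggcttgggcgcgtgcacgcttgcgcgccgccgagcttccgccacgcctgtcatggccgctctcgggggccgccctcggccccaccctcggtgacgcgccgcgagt
Atg4d: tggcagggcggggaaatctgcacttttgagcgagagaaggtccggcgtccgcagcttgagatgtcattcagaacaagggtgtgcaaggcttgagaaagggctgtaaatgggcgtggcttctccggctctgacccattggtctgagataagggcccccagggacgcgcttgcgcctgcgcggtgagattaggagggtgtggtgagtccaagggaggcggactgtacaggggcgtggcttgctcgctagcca
Atg3 holds 2 matches, one of them within the longer TCACGTGA, and the other 3 hold none. RefSeq promoter windows, of 300 bases with 50 beyond the start, were matched for 31 of the 37 genes, and CACGTG, which reads the same on both strands, occurred in 4 of them (12.9%): Atg3, Atg5, Atg7 and Atg14. The RefSeq start used for Atg7 lies 27999 bases inside the gene as the tables place it, so its window is that of an internal start. Among 16869 protein-coding genes the share was 9.14%. TCACGTGA, which contains CACGTG, was in 1 of the 31 (3.23%) and in 1.45% of all genes, and the full CLEAR element, which contains both, was in 0 of 31 and in 0.486% of all. Of the 4 genes with a match Atg3 was called, and Atg5, Atg7 and Atg14 were not.

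Levels of the members spanned more than 3 orders of magnitude. Sqstm1, which encodes the cargo receptor p62, was the highest, at 580 and 510 TPM in Dph1 KO and 559 and 521 TPM in Control, so the groups overlapped. Atg10, an E2-like enzyme that joins ATG12 to ATG5, was the lowest, at 0.581 and 0.251 TPM in Dph1 KO and 0.160 and 0.348 TPM in Control. The 5 ATG8 genes and Sqstm1 made up 68.9% and 72.2% of the summed member TPM in Dph1 KO, and 74.3% and 73.8% in Control. The sum over all members was 2517 and 2434 TPM in Dph1 KO and 2417 and 2386 TPM in Control, which is a small difference beside those of single members. Members under 10 TPM numbered 10 and 11 in the Dph1 KO libraries and 15 and 17 in the Control libraries. TPM ran higher in Dph1 KO for genes at large, with a median log2 fold change of 0.30 on log2(TPM + 1). The share of all genes under 10 TPM was not counted.

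**Figure D1:**
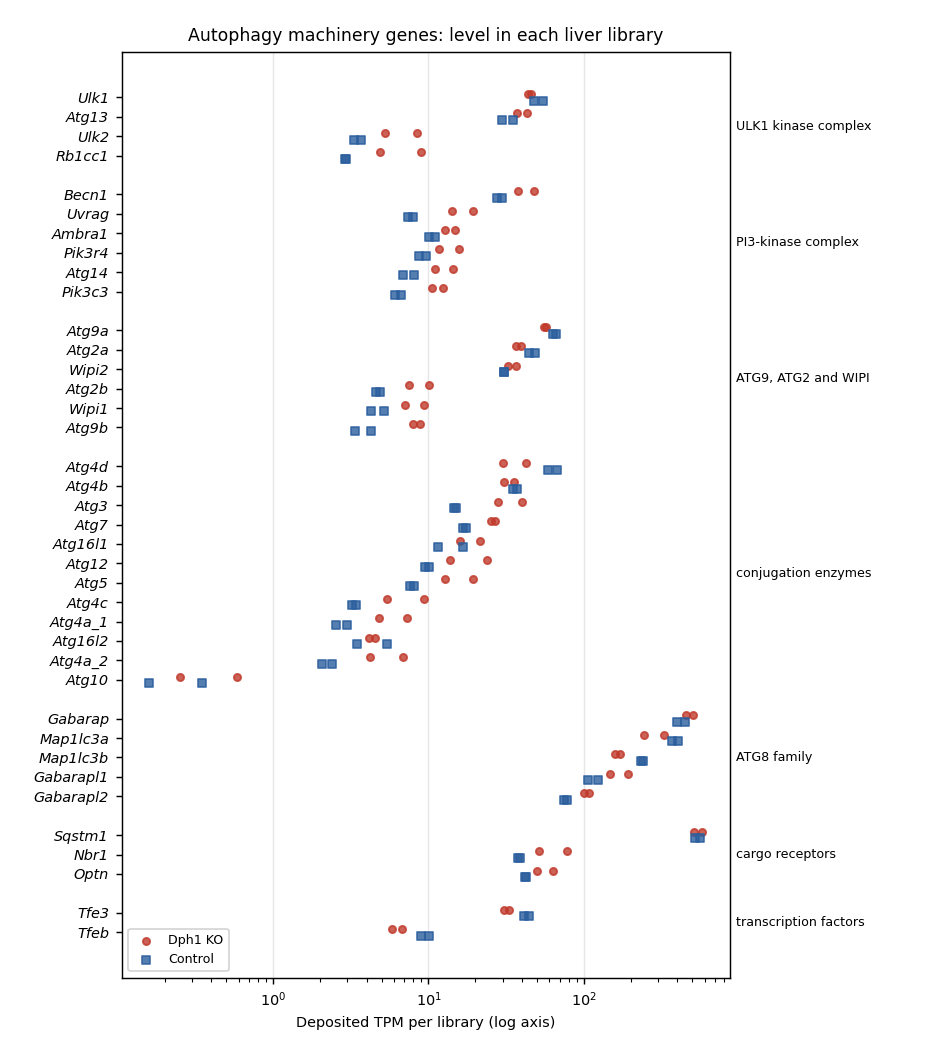
Deposited TPM of each member in each library on a log axis, ordered by role, with circles for the 2 Dph1 KO libraries and squares for the 2 Control libraries. Sqstm1 and the 5 ATG8 genes are the highest 6 members in each library, and Atg10 lies under 1 TPM. Both circles lie left of the squares for Atg2a, Atg4d, Atg9a, Map1lc3a, Map1lc3b, Tfe3, Tfeb and Ulk1. For most of the other members both circles lie right of the squares.

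In the ULK1 kinase complex, which receives the starvation signal, 1 of 4 members rose and none fell (unadjusted p under 0.05 in 2 higher and 1 lower; 1 higher and 0 lower by DESeq2). Rb1cc1 (chr1:6214662-6276104, GRCm38) encodes FIP200, the scaffold on which the kinase assembles. It had 32.4 and 21.9 CPM in Dph1 KO and 14.8 and 16.1 CPM in Control. Both KO libraries were higher, and they lay far apart from each other: the means were 27.1 ± 7.47 CPM in Dph1 KO and 15.4 ± 0.904 CPM in Control (SD, n = 2 each). The log2 fold change was 0.81 ± 0.23 (SE; edgeR adjusted p = 0.0444), and 0.12 with the GC and length offset (edgeR adjusted p = 0.639). Ulk1, the kinase that opens the pathway, had 108 and 140 CPM in Dph1 KO and 161 and 200 CPM in Control. Both KO libraries were below both Control libraries, but the log2 fold change of -0.55 did not pass the test (edgeR adjusted p = 0.134). Its paralogue Ulk2 went the other way in value, at 0.55 (edgeR adjusted p = 0.107). Atg13, the regulatory subunit that mTORC1 phosphorylates, had 74.5 and 77.9 CPM in Dph1 KO and 81.7 and 76.6 CPM in Control, overlapping groups with a log2 fold change of -0.05, which is positive on library totals alone (0.20). Atg101, the partner that stabilises ATG13, had 39.0 and 44.6 TPM in Dph1 KO and 39.8 and 32.2 TPM in Control (log2 fold change -0.14, edgeR adjusted p = 0.662).

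Of the 6 members of the PI3-kinase complex, which makes the lipid mark on the forming membrane, 1 rose and none fell (unadjusted p under 0.05 in 3 higher and 0 lower; 1 higher and 0 lower by DESeq2). Uvrag (chr7:98886743-99141144) encodes the Beclin 1 partner of the complex that acts in endosome and autophagosome maturation. It had 38.6 and 33.5 CPM in Dph1 KO and 19.6 and 20.2 CPM in Control. The Control libraries were close together and both KO libraries lay well above them, at means of 36.0 ± 3.56 CPM in Dph1 KO and 19.9 ± 0.392 CPM in Control (SD, n = 2 each). At 0.86 ± 0.19 (SE; edgeR adjusted p = 0.0239) its log2 fold change was the highest among the members. Becn1, which encodes the Beclin 1 scaffold, had 47.8 and 47.2 CPM in Dph1 KO and 39.6 and 45.1 CPM in Control. The groups stood apart by a narrow margin, and the log2 fold change of 0.17 did not pass the test (edgeR adjusted p = 0.561). Becn1 overlaps Cntd1 by 435 bases on the opposite strand, a gene with 4 reads in Dph1 KO and 0 in Control. Atg14, the partner that directs the kinase to the site of autophagosome formation, was at 0.47, and the catalytic subunit Pik3c3 at 0.48, while Pik3r4, its regulatory subunit, was at 0.23 and the regulator Ambra1 at 0.02 (below 0 with RLE scaling). The adjusted p of these 4 was 0.112 or more by edgeR.

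Among ATG9, ATG2 and the WIPI proteins, which bring lipid to the growing membrane, 0 of 6 members were called by edgeR (unadjusted p under 0.05 in 2 higher and 2 lower), and by DESeq2 Atg2a alone was lower. Atg9a, the lipid scramblase of the donor vesicles, had 97.3 and 123 CPM in Dph1 KO and 153 and 174 CPM in Control. Atg2a, a lipid transfer protein, had 108 and 143 CPM in Dph1 KO and 179 and 217 CPM in Control. For both, each KO library was below each Control library, with log2 fold changes of -0.57 (edgeR adjusted p = 0.109) and -0.66 (edgeR adjusted p = 0.0878). Their paralogues had values above 0: 0.78 for Atg9b and 0.51 for Atg2b (edgeR adjusted p = 0.096). Atg9b, named here after its values were seen, had 14.7 and 20.2 CPM in Dph1 KO and 10.99 and 9.34 CPM in Control. Its KO libraries were both higher and the test missed the threshold narrowly (edgeR adjusted p = 0.0503). Atg9b overlaps Nos3 on the opposite strand by 294 bases, and the sources used here do not say whether counting used strand. Nos3 fell, with a log2 fold change of -0.94. Wipi1 and Wipi2, which read the lipid mark, were at 0.41 and -0.18, and Wipi2 is positive on library totals alone.

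The conjugation enzymes, which ready and attach the ATG8 proteins, held 1 member that rose and 1 that fell among 12 entries. Atg3 (chr16:45158829-45188538), the E2-like enzyme that transfers ATG8 proteins to phosphatidylethanolamine, had 41.0 and 33.9 CPM in Dph1 KO and 22.1 and 22.2 CPM in Control. The KO libraries were both higher, at means of 37.5 ± 5.01 CPM in Dph1 KO and 22.2 ± 0.116 CPM in Control (SD, n = 2 each). The log2 fold change was 0.76 ± 0.20 (SE; edgeR adjusted p = 0.0362), and 0.36 with the GC and length offset (edgeR adjusted p = 0.12). Atg4d (chr9:21265299-21274368) is one of the proteases that trim ATG8 proteins before attachment and free them afterwards. It had 36.2 and 62.2 CPM in Dph1 KO and 95.7 and 120 CPM in Control. The KO libraries were both below the Control libraries but differed widely between themselves, at means of 49.2 ± 18.4 CPM in Dph1 KO and 108 ± 17.1 CPM in Control (SD, n = 2 each). Its log2 fold change of -1.13 ± 0.27 (SE; edgeR adjusted p = 0.029) was the lowest among the members. Atg4d shares 912 bases with Kri1 on the opposite strand, whose log2 fold change of -0.11 was not called.

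Atg4b, the protease with the broadest action on ATG8 proteins, had 43.7 and 61.7 CPM in Dph1 KO and 71.4 and 73.7 CPM in Control. Its KO libraries were both lower in CPM, while in TPM the groups overlapped, and the log2 fold change of -0.46 was not called (edgeR adjusted p = 0.168). The remaining proteases had values above 0: Atg4c at 0.66, and the Atg4a entries at 0.77 and 0.83. Those entries had 65.3% and 48.4% of reads matching 1 place, so how their reads were divided is uncertain. As a share of the summed ATG4 TPM, Atg4d made up 35.9% and 46.0% in Dph1 KO and 56.7% and 60.7% in Control. That share does not depend on how libraries are scaled. It is not corrected for GC content, which among the ATG4 genes was highest in Atg4d (54.5%). With the GC and length offset the log2 fold changes were -0.86 for Atg4d, -0.52 for Atg4b and 0.28 for Atg4c. The Atg4a entries were then at 0.57 and 0.54. With 2 libraries against 2 the smallest exact two-sided permutation p is 0.333, so no share was tested. Atg5, Atg12 and Atg7, which form or activate the ATG12-ATG5 conjugate, were at 0.64, 0.54 and 0.23. With the GC and length offset they were at 0.35, 0.22 and 0.33. All 3 had both KO libraries above both Control libraries in CPM, as did 34.9% of all tested genes. None of the 3 was called, and Atg5 came nearest to the threshold (edgeR adjusted p = 0.0645). Atg16l1, the scaffold of that conjugate, was at 0.07 (-0.23 with an offset for GC content and length), Atg16l2 at -0.41 and Atg10 at 0.26, and none of these passed the test.

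**Figure D2:**
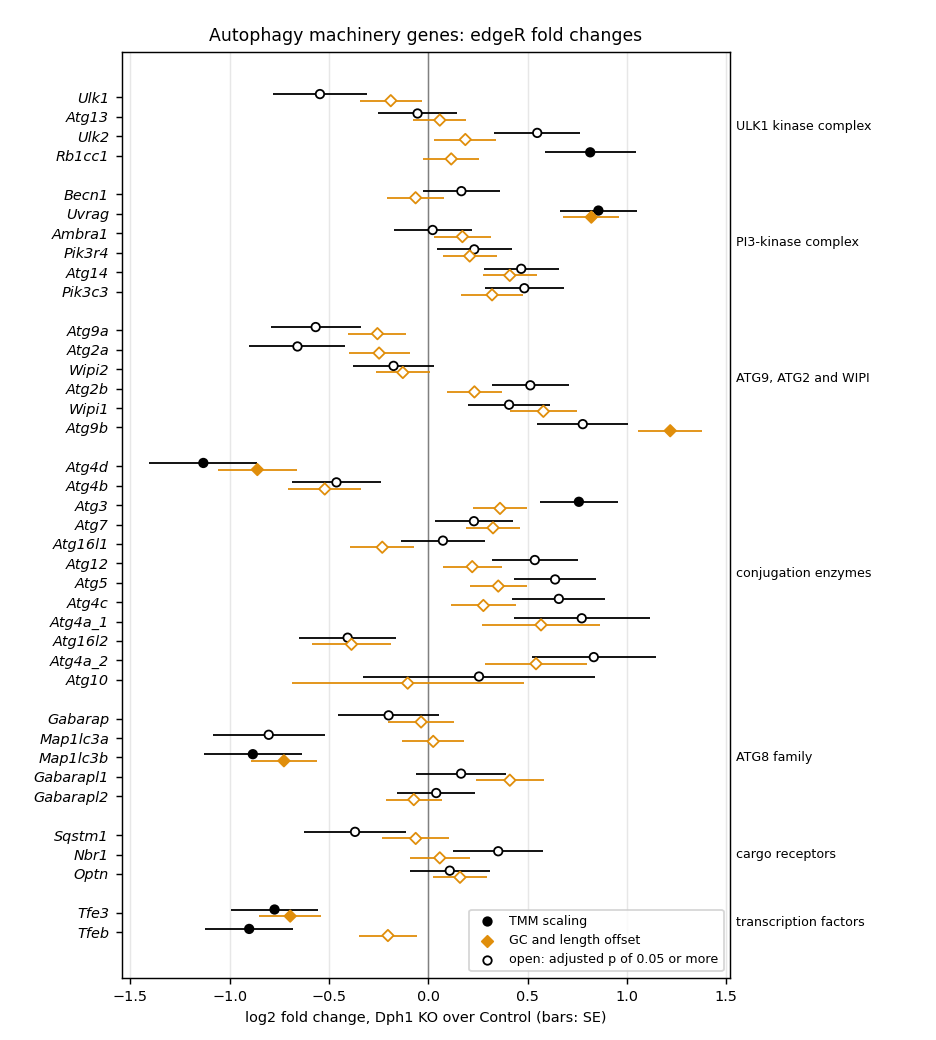
Log2 fold change of Dph1 KO over Control for each member, with bars of 1 SE, from edgeR with TMM scaling (circles) and from edgeR with an offset for GC content and length (diamonds); filled symbols have an adjusted p under 0.05. Filled circles are Rb1cc1, Uvrag, Atg3, Atg4d, Map1lc3b, Tfe3 and Tfeb, and filled diamonds are Uvrag, Atg9b, Atg4d, Map1lc3b and Tfe3.

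Of the 5 ATG8 genes, whose proteins coat the autophagosome, 1 fell and none rose (unadjusted p under 0.05 in 0 higher and 2 lower; by DESeq2 0 higher and 2 lower, Map1lc3a besides Map1lc3b). Map1lc3b (chr8:121590468-121598047), the LC3 protein most used to count autophagosomes, had 126 and 170 CPM in Dph1 KO and 256 and 291 CPM in Control. Both KO libraries were far below both Control libraries, at means of 148 ± 31.0 CPM in Dph1 KO and 273 ± 25.0 CPM in Control (SD, n = 2 each). The log2 fold change was -0.88 ± 0.25 (SE; edgeR adjusted p = 0.0444). Only 59.2% of its reads matched 1 place, and with such reads alone the log2 fold change was -0.96. Map1lc3a, which encodes the other LC3 protein, had 116 and 194 CPM in Dph1 KO and 246 and 295 CPM in Control. These groups did not overlap either, and its log2 fold change of -0.80 ± 0.28 (SE) did not pass edgeR's test (adjusted p = 0.0785).

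The GABARAP genes, whose proteins act with LC3 in autophagosome closure and fusion, showed no called difference. Gabarap, the highest ATG8 gene, had 231 and 319 CPM in Dph1 KO and 321 and 311 CPM in Control, with one KO library between the Controls and one below, and a log2 fold change of -0.20 that turns to 0.05 on library totals alone (edgeR adjusted p = 0.598 and 0.888). Gabarapl1 was at 0.16 and Gabarapl2 at 0.04, the last with only 20.9% of reads matching 1 place. In TPM the summed ATG8 genes gave 1154 and 1247 in Dph1 KO and 1238 and 1241 in Control, so their total overlapped between groups. Within that total, Map1lc3a and Map1lc3b made up 34.9% and 39.9% in Dph1 KO and 48.7% and 52.1% in Control. The LC3 share was thus lower in both KO libraries, and the GABARAP share higher. Map1lc3a, part of that share, went to a log2 fold change of 0.02 with the GC and length offset. Between the LC3 genes, Map1lc3b was 39.3% and 34.3% of the pair in Dph1 KO and 38.6% and 37.4% in Control, which overlap.

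**Figure D3:**
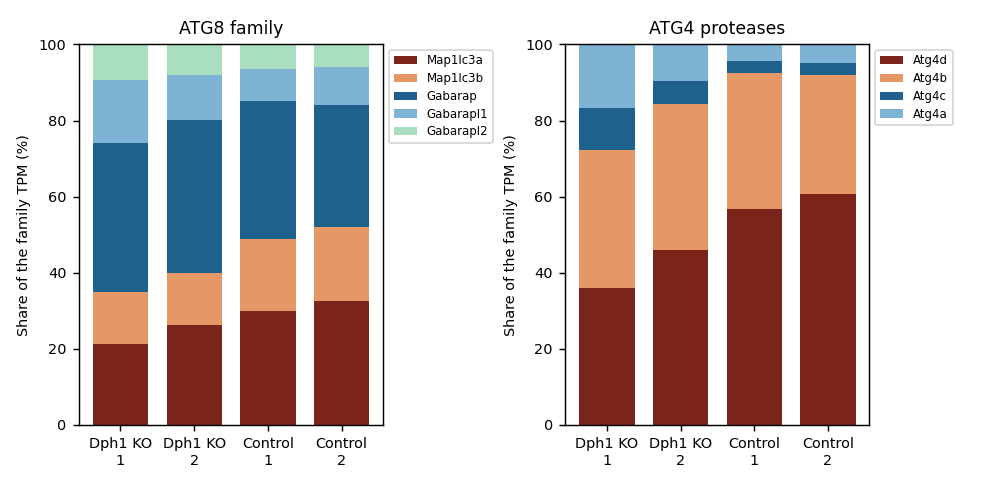
Share of the summed deposited TPM of the ATG8 family (left) and of the ATG4 proteases (right) held by each gene, 1 bar per library, with the 2 Dph1 KO libraries left of the 2 Control libraries and both Atg4a entries added together. Map1lc3a and Map1lc3b together take 34.9% and 39.9% in Dph1 KO and 48.7% and 52.1% in Control, and Atg4d takes 35.9% and 46.0% in Dph1 KO and 56.7% and 60.7% in Control.

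The balance of paralogue pairs is given as a description, with no test, and 67.4% of all tested genes had groups that stood apart in CPM. Ulk1 made up 83.9% and 89.8% of the Ulk1 and Ulk2 TPM in Dph1 KO and 93.5% and 93.6% in Control. Atg9a made up 87.5% and 86.6% of its pair in Dph1 KO and 93.7% and 95.1% in Control, and Atg2a made up 78.5% and 84.1% in Dph1 KO and 90.5% and 90.9% in Control. Wipi2 made up 79.7% and 82.2% of its pair in Dph1 KO and 85.5% and 87.7% in Control. In these 4 pairs the share of the more abundant gene was lower in both KO libraries. The log2 fold change of Ulk1 minus that of Ulk2 was -1.09, and -0.38 with the GC and length offset, and for Atg2a minus Atg2b it was -1.17, and -0.48 with the offset. Atg9a minus Atg9b gave -1.34, and -1.47 with the offset. For Atg16l1 against Atg16l2, the share ran the other way, at 82.7% and 79.3% in Dph1 KO and 75.5% and 76.9% in Control. Tfe3 likewise made up slightly more of the Tfeb and Tfe3 TPM in Dph1 KO, at 84.0% and 82.9%, against 81.4% and 82.2% in Control. With the GC and length offset this order turned: Tfe3 minus Tfeb was 0.13 without the offset and -0.49 with it. Atg16l1 minus Atg16l2 gave 0.48, and 0.155 with the offset, and Wipi2 minus Wipi1 gave -0.58, and -0.71 with it.

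Cargo receptors, which tie ubiquitinated cargo to LC3, had 0 of 3 members called (0 at an unadjusted p under 0.05 by edgeR, and 0 by DESeq2). Sqstm1 had 536 and 585 CPM in Dph1 KO and 714 and 733 CPM in Control. In CPM both KO libraries were lower and in TPM the groups overlapped, with a log2 fold change of -0.37 (edgeR adjusted p = 0.319). Nbr1, a receptor related to p62, had 77.4 and 51.2 TPM in Dph1 KO and 37.6 and 38.8 TPM in Control. Each KO library was higher, and its log2 fold change on the TMM scale was 0.35 (edgeR adjusted p = 0.288). Optn, a receptor for mitochondria and bacteria, was at 0.11.

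Both transcription factors fell. Tfe3 (chrX:7762661-7775202) had 47.3 and 62.9 CPM in Dph1 KO and 93.7 and 94.7 CPM in Control. Each KO library was lower than each Control library, at means of 55.1 ± 11.1 CPM in Dph1 KO and 94.2 ± 0.746 CPM in Control (SD, n = 2 each). The log2 fold change was -0.77 ± 0.22 (SE; edgeR adjusted p = 0.0446). Tfeb (chr17:47737037-47792416) had 8.43 and 11.6 CPM in Dph1 KO and 18.9 and 18.5 CPM in Control. Here too both KO libraries lay below both Control libraries, at means of 10.03 ± 2.25 CPM in Dph1 KO and 18.7 ± 0.288 CPM in Control (SD, n = 2 each), with a log2 fold change of -0.90 ± 0.22 (SE; edgeR adjusted p = 0.0312). In TPM, Tfe3 was the more abundant of the pair, at 30.7 and 32.9 in Dph1 KO and 44.2 and 41.1 in Control, against Tfeb at 5.82 and 6.78 in Dph1 KO and 10.1 and 8.90 in Control. Neither call held on library totals alone (edgeR adjusted p = 0.0695 for Tfe3 and 0.0624 for Tfeb) or on log2(TPM + 1) with limma (adjusted p = 0.148 for Tfe3 and 0.153 for Tfeb). With the GC and length offset Tfe3 was still called, at -0.70 (edgeR adjusted p = 0.0282), and Tfeb was not, at -0.20 (edgeR adjusted p = 0.393).

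The fold changes of the members followed GC content, as did those of all genes. Across the 38 members the Spearman correlation of transcript GC content with log2 fold change was -0.66, and across 12479 protein-coding genes it was -0.62, where genes share libraries and are not independent replicates. In the 19 members of lowest GC (39.1% to 50.4%), 17 had positive fold changes, with a median of 0.51, and all 3 called higher are among them. In the 19 of highest GC (50.7% to 63.2%), 12 were negative, with a median of -0.20, and all 4 called lower are among them. Set against protein-coding genes within 1 percentage point of the same GC, Rb1cc1 (39.1%, neighbours' median 0.56), Atg3 (40.1%, 0.50) and Tfeb (63.2%, -0.82) differed from their neighbours' median by 0.25, 0.26 and -0.08 on the log2 scale. By the same measure Uvrag (50.4%, 0.03), Map1lc3b (51.5%, -0.09), Atg4d (54.5%, -0.28), Tfe3 (52.1%, -0.14) and Atg9b (58.5%, -0.57) differed from theirs by 0.83, -0.79, -0.85, -0.63 and 1.35.

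**Figure D4:**
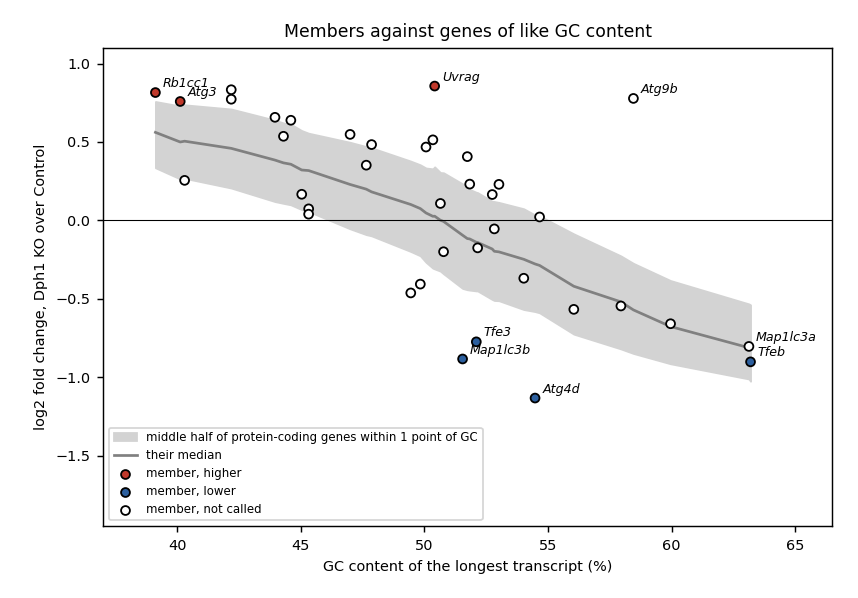
Log2 fold change of each member (Dph1 KO over Control, TMM scale) against the GC content of its longest transcript, with the median and middle 50% of protein-coding genes within 1 percentage point of the same GC as a line and a band. Filled points passed edgeR's test; Tfeb lies inside the band, Rb1cc1 and Atg3 lie just above it, and Uvrag, Atg9b, Atg4d, Map1lc3b and Tfe3 lie well outside it.

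With an offset for GC content and length fitted in each library, edgeR called 2 members higher, Uvrag and Atg9b, and 3 lower, Atg4d, Map1lc3b and Tfe3, where 9.9% of genes were called, 4.46% higher and 5.44% lower. Uvrag kept nearly the whole of its log2 fold change, at 0.82 (edgeR adjusted p = 0.0116). Atg9b was at 1.22 (edgeR adjusted p = 0.00414), Atg4d at -0.86 (0.0312) and Map1lc3b at -0.73 (0.0308). The members' median was 0.09 under the offset, against -0.008 over all genes. Why fold changes followed GC content was not tested.

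Reads in introns come mainly from unspliced RNA. Their log2 ratio was above that of exon reads in 31 of 35 members with at least 20 intron reads (88.6%). The same held in 80.0% of 9795 tested genes. Uvrag had 195 and 133 intron reads in Dph1 KO and 41 and 44 in Control. The log2 ratio of its intron-read CPM was 1.62 and that of its exon-read CPM 0.72, both above 0. Map1lc3b had 81 and 102 intron reads in Dph1 KO and 43 and 51 in Control. Its intron reads were higher in both KO libraries, with a log2 ratio of 0.65, while its exon ratio was -0.91. Atg4d and Tfe3 gave intron ratios of 0.22 and 0.26 from 54 and 82 intron reads in Dph1 KO and 37 and 55 in Control, with exon ratios of -1.15 and -0.80. Among 35 members with at least 20 intron reads, 31 (88.6%) had a higher intron CPM in Dph1 KO, where 82.3% of 9795 tested genes did. Their median intron ratio was 0.59, against 0.48 over those genes, so this was near that background. The intron ratios of Atg4d and Tfe3 were below both medians. Introns took 10.98% and 8.26% of all gene reads in Dph1 KO and 8.64% and 6.24% in Control.

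**Figure D5:**
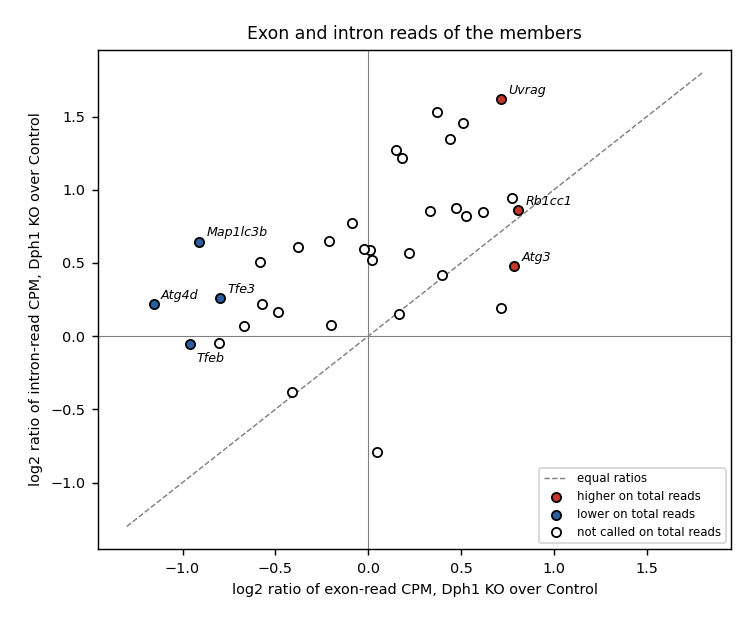
Log2 ratio of intron-read CPM against log2 ratio of exon-read CPM (Dph1 KO over Control) for members with at least 20 intron reads; the dashed line marks equal ratios and filled points passed edgeR's test on total reads. Of the 35 members 31 lie above 0 on the vertical axis, as did 82.3% of 9795 tested genes, whose median intron ratio was 0.48. Map1lc3b, Atg4d and Tfe3 have intron ratios of 0.65, 0.22 and 0.26 beside exon ratios below 0.

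Around the machinery, 98 other genes of the pathway were tested, and 6 rose. None passed edgeR's test as lower, though 8 were lower at an unadjusted p under 0.05; by DESeq2 6 were lower. The 6 are 6.12% of the 98, where 4.86% of all genes were called higher. Among 20 other formation genes, Trp53inp1, a p53-induced protein that binds ATG8 proteins, had 105 and 64.1 TPM in Dph1 KO and 33.0 and 33.2 TPM in Control (log2 fold change 0.96 ± 0.24 SE, edgeR adjusted p = 0.0327). Trappc8, a subunit of a vesicle-tethering complex, had 17.7 and 9.72 TPM in Dph1 KO and 5.09 and 5.66 TPM in Control (0.91, edgeR adjusted p = 0.0346). Both genes were higher in each KO library, which was likely beforehand for called genes, and the first KO library was well above the second.

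In the list of 20 other receptors and mitophagy genes, 1 rose: Fam134b (Retreg1), a receptor for turnover of the endoplasmic reticulum, with 16.7 and 12.9 TPM in Dph1 KO and 6.65 and 6.57 TPM in Control (0.82, edgeR adjusted p = 0.0262). Of 16 genes for fusion with the lysosome, 3 rose. Vps41, a subunit of the HOPS tethering complex, had 29.0 and 18.0 TPM in Dph1 KO and 8.20 and 8.998 TPM in Control (1.05, edgeR adjusted p = 0.018). Fyco1, which links autophagosomes to a kinesin motor, had 10.9 and 6.93 TPM in Dph1 KO and 3.79 and 3.57 TPM in Control (0.87, edgeR adjusted p = 0.027). Epg5, a tether for fusion, had 8.56 and 6.38 TPM in Dph1 KO and 3.50 and 3.47 TPM in Control (0.70, edgeR adjusted p = 0.0404). In all 3 the groups did not overlap, which was likely beforehand for called genes. Of all tested genes 67.4% stood apart in CPM. Under the GC and length offset Vps41 and Fyco1 kept their calls (edgeR adjusted p = 0.0236 and 0.0288), and the other 4 did not, at adjusted p of 0.0629 or more.

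The 29 tested mTORC1 and AMPK genes, which sense nutrients and energy upstream of ULK1, had 0 called by edgeR (unadjusted p under 0.05 in 4 higher and 4 lower), and by DESeq2 0 were higher and 2 lower. Lamtor1, a subunit of the scaffold that holds mTORC1 at the lysosome, had 127 and 174 TPM in Dph1 KO and 202 and 223 TPM in Control. Its partner Lamtor2 had 128 and 123 TPM in Dph1 KO and 72.3 and 89.6 TPM in Control. The groups did not overlap in TPM for either, with opposite order. In CPM those of Lamtor2 overlapped, at 34.8 and 41.6 in Dph1 KO and 28.5 and 37.5 in Control. Log2 fold changes on the TMM scale were -0.85 for Lamtor1 (edgeR adjusted p = 0.0634) and 0.21 for Lamtor2 (edgeR adjusted p = 0.498). With the GC and length offset Lamtor1 was called lower and Lamtor2 higher, at -0.81 and 0.91 (edgeR adjusted p = 0.0457 and 0.0186). Ddit4, an inhibitor of mTORC1 named here after its values were seen, was also called higher with the offset, at 1.27 (edgeR adjusted p = 0.0182), and was at 0.76 without it (edgeR adjusted p = 0.132). Of 13 other transcriptional regulators of autophagy genes, 0 were called by edgeR (2 higher and 0 lower at an unadjusted p under 0.05) and 0 by DESeq2. Nr1h4, the bile acid receptor FXR, had 70.2 and 46.3 TPM in Dph1 KO and 32.5 and 29.8 TPM in Control, and Atf4, the amino acid stress factor, had 62.0 and 51.3 TPM in Dph1 KO and 52.0 and 44.4 TPM in Control. Nr1h4 had both KO libraries higher. Atf4 overlapped in TPM, while in CPM it had 49.5 and 51.0 in Dph1 KO and 57.5 and 53.7 in Control, so both KO libraries were lower on that scale. These genes had log2 fold changes of 0.41 and -0.15 on the TMM scale (edgeR adjusted p = 0.205 and 0.615).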

How the data were processed

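Liver mRNA was sequenced in 2 Dph1 KO and 2 Control libraries, grouped by the genotype label, from C57BL/6 mice given DEN. Per the labels' protocols, RNA from frozen livers was made into directional libraries with a stranded kit. The submitters' processing notes name GRCm38 and mm10 as the build. Not given in the sources used here are the aligner, the counter, its use of strand and its division of reads that match several places. Per the file headers, the authors gave read counts per gene for total, unique, exon, junction and intron reads. Also deposited by the authors were TPM and RPKM values, and ratios (fractions) of unique and intron reads; the RPKM values and ratios were not used.

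Total gene reads were tested with edgeR 4.0.16 in R 4.3.3 (TMM, filterByExpr, genotype only), with a biological coefficient of variation of 18.4%. Libraries held 19474596 to 21137358 gene reads, 89.3% to 90.2% of them unique. Chi-square per degree of freedom within groups was 77.3 in Dph1 KO and 29.7 in Control, so no library was counted as a copy of another. Alternatives were RLE scaling, library totals alone, no filter, DESeq2 1.42.0, limma 3.58.1 (voom, and log2 TPM with pseudocounts of 1 and 0.1 on genes above 0.5 TPM), unique reads, exon reads, a GC and length offset (mgcv 1.9.3), and leaving out each library. GC content came from GENCODE mouse release M21 transcripts and was found for 99.5% of protein-coding entries. The edgeR script was tested on simulated data.

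The members and gene lists were chosen with earlier results of these data known. Per-library values are given for each called member and for the 2 members of highest mean TPM in each role group; in other lists up to 4 called genes of lowest p are named, or the 2 of highest TPM where none was called.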

Additional observations from a re-analysis of the deposited data

How the results depend on the processing

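In 14 alternative analyses, the 7 called members kept their direction, which was likely beforehand as their groups of libraries stood apart. Members called, at 3 higher and 4 lower by edgeR, became 13 and 2 on library totals alone, 13 and 2 on log2(TPM + 1) with limma, and 15 and 1 on log2(TPM + 0.1). These settings moved the median log2 fold change of all genes up by 0.26, 0.26 and 0.33. Calls over all genes moved too: 646 higher and 994 lower of 13303 became 2634 and 789 of 13303 on library totals alone. The counts over all genes were 2305 and 566 of 11656 on log2(TPM + 1), and 2442 and 582 of 11656 on log2(TPM + 0.1). With 1 library left out, calls over all genes, higher and lower together, fell or rose as the members' calls did. Calls of other pathway genes moved with them too, except without Dph1 KO replicate 1. Leaving out 1 library gave 0 to 11 members higher and 0 to 9 lower. Other pathway genes called higher, 6 by edgeR, became 28 on library totals alone, 27 on log2(TPM + 1), 28 on log2(TPM + 0.1) and 0 to 26 with 1 library left out. Other pathway genes called lower, 0 by edgeR, became 1 with RLE scaling, 3 with no filter, 6 with DESeq2, 1 on exon reads, 1 with the GC and length offset and 0 to 12 with 1 library left out. Besides the fits without a Control library, Rb1cc1 lost its call with the GC and length offset (edgeR adjusted p = 0.639), with limma-voom (adjusted p = 0.0543) and without Dph1 KO replicate 1 (edgeR adjusted p = 0.0769). Map1lc3b lost its call on log2(TPM + 0.1) with limma (adjusted p = 0.0518) and without Dph1 KO replicate 1 (edgeR adjusted p = 0.0601), and Tfe3 without Dph1 KO replicate 1 (edgeR adjusted p = 0.0665). Atg4d lost its call only without Control replicate 2 (edgeR adjusted p = 0.12), in 1 of the 14. The causes were not tested. Of 528 pairs of a member and an alternative, 51 gained a call and 27 lost one, and 27 changed sign between values without a call. Read depth limits Atg10 most, with 21 unique reads over both Dph1 KO libraries and 13 over both Control libraries. No paired analysis was possible because the labels give no replicate numbers, and the numbers used here only name the libraries.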
